A study of Homo sapiens with 8 samples.

Results

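MHC class II molecules display peptides from the endosomal pathway to CD4+ T cells, and B-lineage cells carry them along with macrophages and dendritic cells. The 9 genes described here are 7 class II chains (HLA-DRA, HLA-DPA1, HLA-DPB1, HLA-DQB1, HLA-DMA, HLA-DMB and HLA-DOA), the invariant chain CD74 and the transactivator CIITA. They were taken by gene symbol, not by level, and 12 of the 39421 probes on the arrays are annotated to them, out of 18205 genes with a probe of their own. HLA-DRA has 2 probes, CD74 has 3 and each other gene has 1. HLA-DRA, HLA-DPA1, HLA-DPB1 and HLA-DQB1 encode chains of the DR, DP and DQ molecules that reach the cell surface. CD74 escorts newly made class II dimers to endosomes and keeps their groove filled, HLA-DM (HLA-DMA with HLA-DMB) exchanges the remaining CD74 fragment for peptide, and HLA-DO, of which HLA-DOA is the alpha chain, restrains HLA-DM. CIITA does not bind DNA itself. It is recruited to class II promoters by factors that sit on a conserved X box (the RFX complex and CREB family proteins) and a Y box (NF-Y), and in the textbook account its amount sets class II transcription.

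The cells were SEM, a human line from an acute lymphoblastic leukaemia of B-cell precursors with the MLL/AF4 fusion, which arises when the KMT2A gene (MLL) is joined to AFF1 (AF4). In the siMLL/AF4 group the cells were electroporated with siRNA against the fusion, in the siCtrl group with a control siRNA, and in the MOCK group they received the electric pulse without siRNA. Pulses were given up to 3 times, 2 days apart, and RNA was taken on days 2, 4 and 6 in the siRNA groups and on days 2 and 4 in MOCK. Each treatment and day is 1 Illumina array, 8 in all, and every sample is this 1 cell line. The 3 days of a treatment are the replicates in what follows. The labels do not say whether they come from separate cultures, so the p-values measure only the spread between these arrays.

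The promoters of the class II genes carry the shared feature through which CIITA acts, so their X-box regions are shown first. Promoter sequence was available from RefSeq (build GRCh38.p14, 250 bases before to 50 after the start site) for 7 of the 9 genes, in 8 entries. A 12-base form of the X box, called X-box-like here, was searched on both strands, as was CCAAT, the core of the Y box, which reads ATTGG on the other strand. The letters allowed in the X-box-like motif were set from the known X box after these promoters had been seen, so that its presence in them is no test. It was found in 5 of the 8 entries, those of HLA-DPA1, HLA-DQB1, HLA-DMA, HLA-DMB and HLA-DOA, and in 0.450% of all 35116 promoters in the table. CCAAT is in 34.6% of all promoters, and both motifs are in 0.157%. The 5 regions are printed 5′ to 3′ on the gene's strand (all on the minus strand of chromosome 6), with the X-box-like match in capitals and, where 1 follows within the printed stretch, the CCAAT match in capitals as ATTGG.
HLA-DPA1, chr6:33073704-33073757: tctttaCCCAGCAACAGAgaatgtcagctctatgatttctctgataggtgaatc
HLA-DQB1, chr6:32666735-32666787: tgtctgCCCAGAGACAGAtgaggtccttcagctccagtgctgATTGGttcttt
HLA-DMA, chr6:32953166-32953219: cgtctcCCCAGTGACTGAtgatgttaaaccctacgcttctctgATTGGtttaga
HLA-DMB, chr6:32941072-32941125: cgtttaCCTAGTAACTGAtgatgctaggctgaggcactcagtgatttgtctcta
HLA-DOA, chr6:33009648-33009701: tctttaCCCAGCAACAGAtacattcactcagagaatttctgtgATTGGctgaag

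The matches begin 102 bases before the start site in HLA-DPA1, 124 in HLA-DQB1, 116 in HLA-DMA, 91 in HLA-DMB and 104 in HLA-DOA. HLA-DPA1 and HLA-DOA hold the same 12 bases in capitals. Between the 2 motifs lie 24 bases in HLA-DQB1 and 25 in both HLA-DMA and HLA-DOA. The entries of HLA-DPB1 and CD74 and a second entry of HLA-DPA1 had no X-box-like match, and CCAAT occurred 2 times in that of HLA-DPB1 and 1 time in that of CD74. These matches describe letters in a window and not bound sites.

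Values are log2 intensities, obtained from the deposited values on the assumption that those are natural logs. The arrays share 1 distribution with a median probe at 5.16, a 25th percentile at 3.48 and no value (entry Null) for 28.5% to 28.8% of the probes. For day 6 both siRNA samples were run on a newer version of the array. Its median rank correlations with the older arrays were 0.831 (siMLL/AF4) and 0.873 (siCtrl), against 0.911 to 0.921 among the older ones. Differences were therefore taken within a day. Statements that groups of arrays overlap or separate, and spreads of levels over the 3 days, mix both array versions. No probe over the fusion junction was used. The KMT2A probe was at 7.17, 6.42 and 7.33 on days 2, 4 and 6 under siMLL/AF4 and at 7.66, 6.97 and 7.86 under siCtrl, and the AFF1 probe at 7.90, 7.88 and 7.91 under siMLL/AF4 and at 9.92, 9.09 and 8.42 under siCtrl. Both were lower on each day but did not pass the test (limma, adjusted p = 0.715 and 0.633). For siMLL/AF4 against MOCK they differed by 0.048 (KMT2A) and -0.23 (AFF1; limma, adjusted p = 0.940 and 0.739). For siCtrl against MOCK they were higher by 0.57 (KMT2A) and 1.38 (AFF1; limma, adjusted p = 0.301 and 0.246), so on days 2 and 4 siCtrl lay above both other treatments. These probes can also read the unfused genes. Of the B-cell precursor markers, 6 of the 11 on the array (CD79A, CD79B, VPREB1, IGLL1, EBF1 and CD22) were above the 25th percentile on all 8 arrays, while PAX5, DNTT, RAG1, RAG2 and CD24 had no value or a dim one on 4 or more.

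The class II genes fell into a bright set and a dim set in SEM cells. HLA-DRA, HLA-DPA1, HLA-DMA, HLA-DMB, HLA-DOA and CD74 lay above the median probe on all 8 arrays, and the HLA-DRA probes and the brightest CD74 probe were at or above the 96.7th percentile of probes on each. HLA-DPB1, HLA-DQB1 and CIITA lay near or under the median probe. Levels of different probes are not compared further, since a probe's brightness depends on its sequence.

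**Figure D1:**
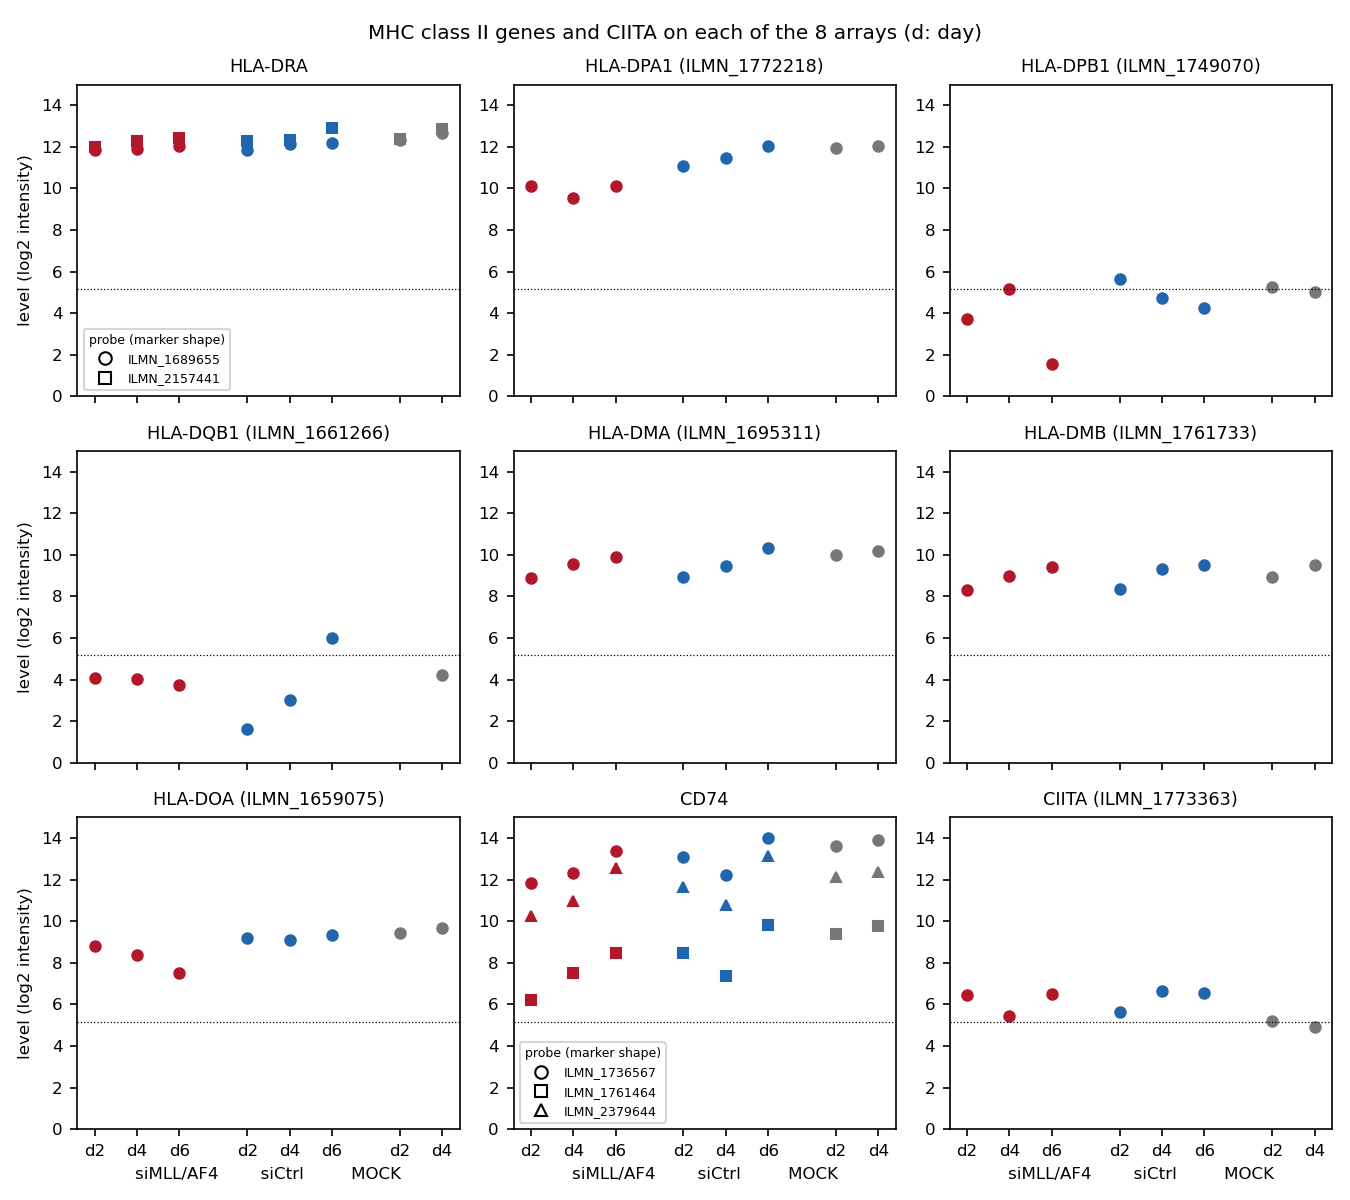
Level (log2 intensity) of each probe of the 9 genes on each array, by treatment and day; the dotted line is the median probe (5.16) and marker shapes tell probes of 1 gene apart. HLA-DPA1 and HLA-DOA are lower on all 3 siMLL/AF4 arrays than on any siCtrl array, CD74 is lowest on day 2 of siMLL/AF4, and CIITA is lowest on the MOCK arrays. The day 6 arrays are of a newer version.

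The first comparison asked what changed with knock-down of MLL/AF4 relative to the control siRNA. HLA-DPA1 showed the widest separation among the 9 genes: it was 3.04-fold lower under siMLL/AF4, and HLA-DOA was lower on each day by an amount that differed between days. The other genes differed by less, or in a different direction on different days. Over the 6 siRNA arrays none of the 11 probes tested passed the threshold of an adjusted p of 0.05 (limma with day as a block, Benjamini-Hochberg over 11930 probes), and neither did any other probe: the called share was 0%. Without adjustment, 851 probes in all had a p under 0.05. Of the genes described here 2, HLA-DPA1 and HLA-DOA, were among them, both lower, against 3.51% of all probes in that direction and 3.62% in the other.

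HLA-DPA1, the alpha chain of HLA-DP, was at 10.13, 9.54 and 10.11 on days 2, 4 and 6 under siMLL/AF4, against 11.06, 11.48 and 12.05 under siCtrl. All siMLL/AF4 arrays lay below all siCtrl arrays. The means were 9.93 ± 0.34 under siMLL/AF4 and 11.53 ± 0.50 under siCtrl (SD, n = 3 each), a difference of -1.60 ± 0.31 (SE; limma, adjusted p = 0.577). By day the difference was -0.93, -1.94 and -1.95. Over the alternative settings the adjusted p ran between 0.0088 and 1.00, and it was under the threshold in 2 of them, an offset of 64 on the linear scale and a trended robust variance (limma, adjusted p = 0.0097).

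HLA-DRA, the alpha chain shared by all HLA-DR molecules, was at 11.84, 11.88 and 12.06 under siMLL/AF4 and at 11.85, 12.14 and 12.17 under siCtrl by its first probe, ILMN_1689655. Its second probe, ILMN_2157441, gave 11.97, 12.28 and 12.41 under siMLL/AF4 and 12.30, 12.35 and 12.89 under siCtrl. Both probes were lower under siMLL/AF4 on each day, but the groups overlapped. The differences were -0.13 ± 0.23 and -0.30 ± 0.24 (SE; limma, adjusted p = 0.942 and 0.851).

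HLA-DPB1, the beta chain that pairs with HLA-DPA1, was at 3.72, 5.16 and 1.54 under siMLL/AF4 and at 5.66, 4.74 and 4.26 under siCtrl, too dim to enter this fit. Its mean difference of -1.42 came from days 2 and 6, with the opposite sign on day 4 (0.42), and the groups overlapped. HLA-DQB1, the beta chain of HLA-DQ, was at 4.08, 4.05 and 3.72 under siMLL/AF4 and at 1.62, 3.00 and 5.98 under siCtrl. The siMLL/AF4 arrays were close together and the siCtrl arrays spread widely around them, so that the difference was 2.46, 1.04 and -2.26 by day. Averaged over days it was 0.41 ± 0.92 (SE; limma, adjusted p = 0.955).

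For the peptide-exchange factor HLA-DM, HLA-DMA was at 8.87, 9.55 and 9.88 under siMLL/AF4 and at 8.94, 9.47 and 10.34 under siCtrl. HLA-DMB was at 8.33, 8.96 and 9.43 under siMLL/AF4 and at 8.35, 9.33 and 9.50 under siCtrl. The groups overlapped for both chains, which differed by -0.15 ± 0.25 (HLA-DMA) and -0.15 ± 0.24 (HLA-DMB; SE; limma, adjusted p = 0.935 and 0.930).

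HLA-DOA, of the HLA-DM inhibitor HLA-DO, was at 8.81, 8.37 and 7.51 under siMLL/AF4 and at 9.18, 9.10 and 9.33 under siCtrl. Every siMLL/AF4 array lay below every siCtrl array, and the siCtrl arrays stayed within 0.23 of each other. The difference was -0.37 on day 2, -0.73 on day 4 and -1.82 on day 6. Its mean was -0.97 ± 0.36 (SE; limma, adjusted p = 0.681).

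CD74 by its brightest probe, ILMN_1736567, was at 11.85, 12.30 and 13.37 under siMLL/AF4 and at 13.08, 12.23 and 13.99 under siCtrl. ILMN_1761464 gave 6.19, 7.53 and 8.45 under siMLL/AF4 and 8.47, 7.38 and 9.81 under siCtrl, and ILMN_2379644 gave 10.24, 10.96 and 12.57 under siMLL/AF4 and 11.62, 10.76 and 13.16 under siCtrl. All 3 probes showed the same order: lower under siMLL/AF4 on days 2 and 6, slightly higher on day 4, when siCtrl was at its own lowest, and groups that overlapped. By day the brightest probe differed by -1.23, 0.070 and -0.61. The mean differences were -0.59 ± 0.33, -1.16 ± 0.51 and -0.59 ± 0.37 (SE; limma, adjusted p = 0.780, 0.715 and 0.807).

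CIITA was at 6.44, 5.43 and 6.48 under siMLL/AF4 and at 5.63, 6.65 and 6.54 under siCtrl. The groups overlapped, and the difference was positive on day 2 (0.81), negative on day 4 (-1.22) and near zero on day 6 (-0.055). Its mean was -0.15 ± 0.44 (SE; limma, adjusted p = 0.965), and its sign was positive without day 4.

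Counted by direction, 5 of the 12 probes, of HLA-DRA, HLA-DPA1, HLA-DMB and HLA-DOA, were lower under siMLL/AF4 on all 3 days, as were 15% of all probes tested. None was higher on all 3 days, against 13.9% of all. Complete separation of the 3 arrays from the other 3, with siMLL/AF4 lower, held for 2 of the 12 probes (HLA-DPA1 and HLA-DOA) and for 3.04% of all, and in the other direction for 0 and for 3.7%. Separation sets day 6 levels from the newer array version against day 2 and day 4 levels from the older one. A difference of 2-fold or more downward on each day was seen in none of the 12 and in 0.335% of all. The median difference over the 12 probes was -0.35 on day 2, 0.00056 on day 4 and -0.60 on day 6, with 10, 6 and 12 probes lower, where 46.3%, 51.1% and 56.3% of all probes tested were lower on those days. For the mean over days the median was -0.44. Over all probes tested the mean difference had a median of -0.021, and 52.5% were lower.

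**Figure D2:**
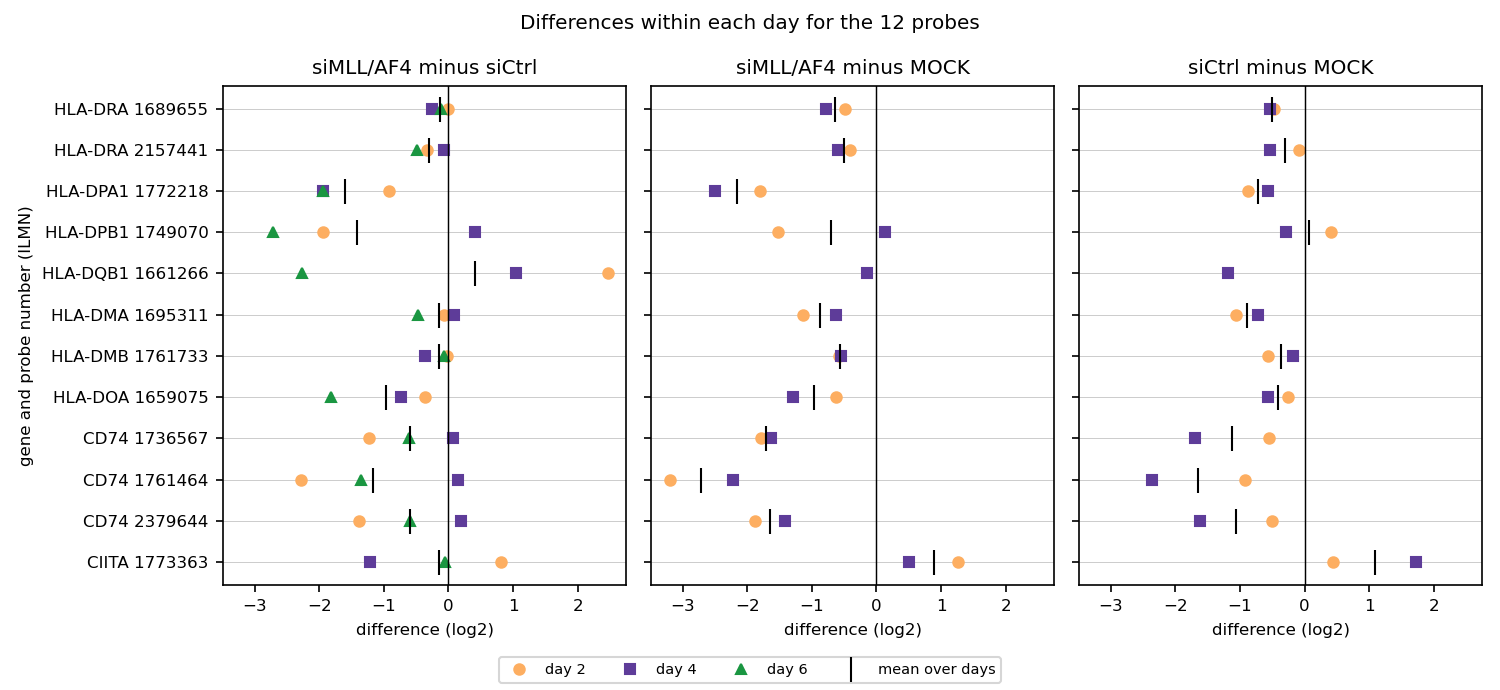
Differences of log2 level within each day (symbols) and their mean over days (bars) for the 12 probes, with siMLL/AF4 minus siCtrl, siMLL/AF4 minus MOCK and siCtrl minus MOCK from left to right. HLA-DPA1 has the lowest mean in the left panel (-1.60), a CD74 probe in the middle one (-2.71), and CIITA is right of zero in both comparisons with MOCK; HLA-DQB1 has no MOCK value on day 2 and so no mean there.

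For 6 of the 7 class II genes with a mean against MOCK (CD74 included), values under each siRNA lay below those of the pulse alone on both days, and for CIITA they lay above. None of these differences passed the test, and the share of all probes on the same side of MOCK on both days stands beside each count that follows. MOCK exists for days 2 and 4, on the older arrays. The 2 comparisons with MOCK share the MOCK arrays, and the comparison of siMLL/AF4 with siCtrl shares arrays with both. In MOCK cells HLA-DPA1 was at 11.94 and 12.04, HLA-DOA at 9.44 and 9.67, HLA-DMA at 10.00 and 10.18, and HLA-DMB at 8.91 and 9.51. The brightest CD74 probe was at 13.63 and 13.93, the other CD74 probes at 9.40 and 9.75 and at 12.12 and 12.37, and the HLA-DRA probes at 12.33 and 12.67 and at 12.38 and 12.88. Of the dim genes, HLA-DPB1 was at 5.25 and 5.02, HLA-DQB1 had no value on day 2 and 4.20 on day 4, and CIITA was at 5.18 and 4.92.

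For siMLL/AF4 against MOCK, 9 of the 11 probes with values were lower on both days (30.3% of all probes tested), and 1, that of CIITA, was higher on both (34.3% of all). HLA-DPA1 was 4.45-fold lower, by -2.15 ± 0.35 (2.81-fold if the deposited logs are to base 2, which would also turn the 3.04-fold against siCtrl into 2.16-fold), and the 3 CD74 probes were lower by -1.70 ± 0.41, -2.71 ± 0.63 and -1.64 ± 0.45 (SE; limma, adjusted p = 0.302 for each). HLA-DOA differed by -0.96 ± 0.29 and HLA-DMA by -0.88 ± 0.27 (SE; limma, adjusted p = 0.303 and 0.304). HLA-DMB differed by -0.56, HLA-DPB1 by -0.70 and the HLA-DRA probes by -0.64 and -0.50 (limma, adjusted p = 0.368, 0.595, 0.332 and 0.409). CIITA was higher by 0.88 ± 0.54 (SE; limma, adjusted p = 0.453). No probe of the 13750 passed (0%), and 2144 had an unadjusted p under 0.05. Among those were 6 of the 11 probes, of HLA-DPA1, HLA-DOA, HLA-DMA and CD74, all lower, against 7.23% of all probes in that direction and 8.36% in the other. HLA-DPA1 passed with the stricter brightness filter, with an offset of 64 and with a trended robust variance (limma, adjusted p = 0.0273, 3.0e-04 and 0.00118).

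The control siRNA arrays were also lower than the pulse alone for most of these genes, with no probe passing the test. For siCtrl against MOCK, 9 of the 11 probes were again lower on both days (37.8% of all), and CIITA was higher on both (33% of all). HLA-DPA1 was lower by -0.72 ± 0.35 (SE; limma, adjusted p = 0.331), a smaller difference than in siMLL/AF4 cells, and HLA-DMA by -0.89 ± 0.27 (SE; limma, adjusted p = 0.25). The CD74 probes differed by -1.13, -1.64 and -1.05 (limma, adjusted p = 0.272, 0.278 and 0.301), mostly through day 4, on which the brightest differed by -1.70 against -0.55 on day 2. HLA-DOA differed by -0.41, HLA-DMB by -0.37, HLA-DPB1 by 0.067 and the HLA-DRA probes by -0.50 and -0.30 (limma, adjusted p = 0.473, 0.479, 0.958, 0.352 and 0.554). CIITA was higher by 1.09 ± 0.54 (SE; limma, adjusted p = 0.344). Again no probe passed (0%), 2494 had an unadjusted p under 0.05, and 2 of the 11 (of HLA-DMA and CD74) were among those that were lower, against 7.61% of all lower and 10.5% of all higher.

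The median difference from MOCK over the 11 probes with a mean was -0.88 for siMLL/AF4, where the median of all probes tested was 0.027, and -0.50 for siCtrl, where it was -0.058. Both siRNA treatments were also set together against MOCK, a comparison added after seeing these values. All 4 siRNA arrays of days 2 and 4 lay below both MOCK arrays for 8 of the 11 probes (both of HLA-DRA, all of CD74, and those of HLA-DPA1, HLA-DMA and HLA-DOA), which was true of 16.4% of all probes. CIITA was the only 1 of the 11 above both, and 15% of all probes were. HLA-DPA1 differed by -1.44, HLA-DMA by -0.88 and the CD74 probes by -1.41, -2.18 and -1.35, with limma adjusted p between 0.206 and 0.209. HLA-DOA differed by -0.69 and CIITA by 0.98 ± 0.47 (SE; limma, adjusted p = 0.239 and 0.305). No probe of all 13750 passed (0%), and 2812 had an unadjusted p under 0.05, with 6 of the 11 among the lower ones, against 8.89% of all lower and 11.6% of all higher.

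CIITA and the class II genes were thus not ordered alike across the arrays. After subtracting each probe's mean within its array version, the mean of the 7 class II genes with values on all arrays (CD74 included, HLA-DQB1 left out, 1 probe per gene) was at -0.71, -0.36 and -0.58 on days 2, 4 and 6 of siMLL/AF4, at -0.010, 0.0065 and 0.58 under siCtrl, and at 0.41 and 0.65 in MOCK. CIITA was at 0.73, -0.28 and -0.028 under siMLL/AF4, at -0.080, 0.94 and 0.028 under siCtrl, and at -0.53 and -0.79 in MOCK. The class II mean includes the dim probe of HLA-DPB1, at 3.72, 5.16 and 1.54 under siMLL/AF4 and at 5.66, 4.74 and 4.26 under siCtrl. It was highest in MOCK among the older arrays, and CIITA was lowest there. The newer version holds only the 2 day 6 arrays, so their centred values mirror each other and carry the same difference. They do not give the level relative to the older arrays. The Pearson correlation of CIITA with the mean was -0.52 over the 8 arrays, given as a description. Levels of CIITA mRNA from 1 probe near the median probe were measured here, and not its protein or its separate promoters.

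**Figure D3:**
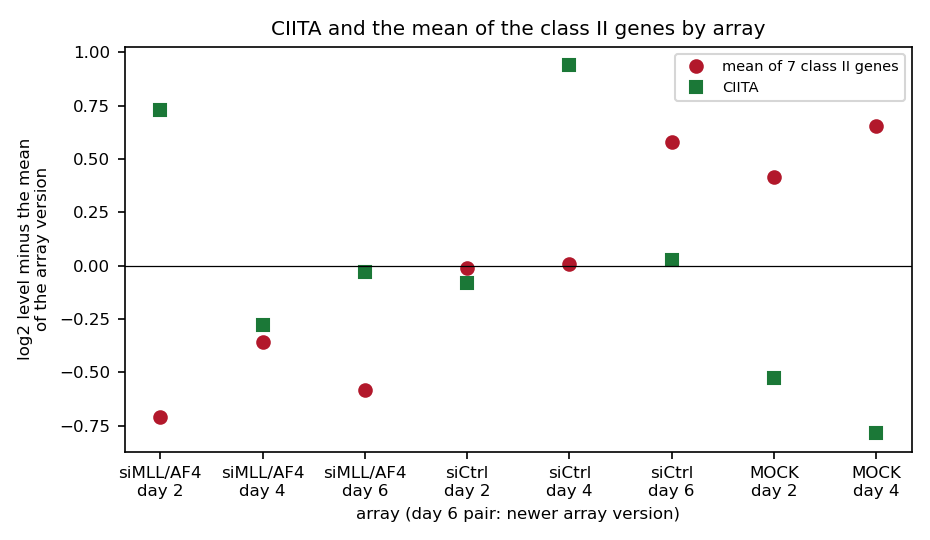
Log2 level minus the mean of the array version, on each of the 8 arrays, for CIITA (squares) and for the mean of the 7 class II genes (circles). The circles are below zero on the 3 siMLL/AF4 arrays and highest in MOCK among days 2 and 4, while the squares are lowest in MOCK (-0.53 and -0.79). The day 6 points mirror each other because the newer version holds only these 2 arrays.

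The same measure, correlation with the class II mean over 8 arrays, was 0.916 for HLA-DPA1, 0.914 and 0.771 for HLA-DRA, 0.908, 0.861 and 0.857 for CD74, 0.893 for HLA-DOA, 0.793 for HLA-DMA and 0.554 for HLA-DMB. These genes are part of the mean they were set against. HLA-DPB1 is also part of it but was too dim to be among the probes ranked. Among the 11619 probes ranked, the genes outside the class II set with the closest profiles were EXOSC5 (0.989), ACY1 (0.985), SMAGP (0.984), RTL8A (0.979) and FAHD2A (0.979). ACY1, for example, was at 8.13, 8.38 and 7.85 under siMLL/AF4, at 9.01, 8.98 and 9.08 under siCtrl and at 9.20 and 9.48 in MOCK. Its siMLL/AF4 arrays were lowest and its MOCK arrays highest, with no overlap of the groups. ACY1 was picked for its likeness to the class II mean, so this order is no separate result.

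Between days 2 and 4 the 2 HLA-DM chains had the largest mean differences of the 11 probes. Days also differ in the number of pulses given, and these cannot be told apart. Day 4 minus day 2 was 0.63 under siMLL/AF4, 0.98 under siCtrl and 0.60 in MOCK for HLA-DMB, and 0.68, 0.53 and 0.18 in the same order of treatments for HLA-DMA. Over the 6 older arrays with treatment as a block, the differences were 0.73 ± 0.22 for HLA-DMB and 0.46 for HLA-DMA (SE; limma, adjusted p = 0.460 and 0.468). HLA-DMB was the only 1 of the 11 probes at an unadjusted p under 0.05, against 4.41% of all probes higher and 6.35% lower, and none of 13750 passed (0%), with 1479 at an unadjusted p under 0.05.

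Whether the difference of siMLL/AF4 from siCtrl itself changed with day was tested with 1 residual degree of freedom. HLA-DQB1 had the steepest slope, -1.18 ± 0.19 per day (SE; limma, adjusted p = 0.357), followed by HLA-DOA at -0.36 ± 0.15 and HLA-DPA1 at -0.25 (limma, adjusted p = 0.479 and 0.60). The HLA-DQB1 slope rests on dim siCtrl values, with days 2 and 4 (1.62 and 3.00) under the 25th percentile of 3.48. Under siMLL/AF4 that probe changed little, at 4.08, 4.05 and 3.72. HLA-DQB1 alone of the 11 was at an unadjusted p under 0.05, with 6.97% of all probes lower and 4.17% higher at that level, 1329 in all, and none passed (0%). Day 6 and the newer array version cannot be told apart.

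The genes around class II presentation were read from lists of symbols, with 1 probe per gene. In the comparison of siMLL/AF4 with siCtrl no gene of any list passed the test, so the counts that follow are of signs, beside 50.8% lower and a median of -0.0054 over all 9096 genes tested. Of the other class II genes, 4 of the 8 on the array could be tested and all 4 were lower (median -0.44): HLA-DRB6, a pseudogene, by -0.85, HLA-DRB4 by -0.48, HLA-DRB3 by -0.40 and HLA-DRB1 by -0.14. The first 3 were lower on all 3 days, while HLA-DRB1, at levels of 2.54 to 4.99, differed by -0.69, -1.17 and 1.44 by day. The HLA-DRB genes are close in sequence, so a probe of 1 can hold signal of another. Of the factors that bind class II promoters, all 7 were tested and 3 were lower and 4 higher (median 0.077). The RFX subunits RFXANK, RFXAP and RFX5 differed by 0.26, 0.20 and 0.13 and NFYA of the Y-box factor by -0.097. Only RFXANK kept 1 sign on all 3 days: RFXAP differed by 0.88, -0.076 and -0.20, and CREB1, which binds beside the RFX complex, by -0.84, -0.40 and 1.21. Their means were closer to zero than those of HLA-DPA1 and HLA-DOA, but RFXANK and RFXAP differed by more than HLA-DMA, HLA-DMB or CIITA.

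Of the genes that regulate CIITA, 9 of 13 were tested, with 5 lower and 4 higher (median -0.066). IRF1, an interferon-induced activator of CIITA, differed by 0.62, mostly through day 2 (1.56, 0.24 and 0.057 by day). SPI1 differed by -0.24, IRF2 by -0.22 and IFNGR1, a chain of the interferon gamma receptor, by 0.22, and of the 9 only IRF1 kept 1 sign on all days. Of the genes of endosomal proteolysis and class II turnover, 9 of 12 were tested, with 3 lower and 6 higher (median 0.17). The protease genes CTSD and LGMN were higher by 1.06 and 0.45, the thiol reductase IFI30 was higher by 0.64, and CTSH was lower by -0.74. CTSD and IFI30 were higher on all 3 days, while CTSH differed by 0.80, -0.99 and -2.03 by day.

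All 4 tested genes of costimulation and adhesion, out of 6, were higher (median 0.69): CD40 by 2.49 ± 1.07 (SE), CD86 by 0.99, CD58 by 0.38 and CD83 by 0.058. The limma adjusted p was 0.710 for CD40 and 0.633 for CD86. CD86 and CD58 were higher on all 3 days. The CD40 value rests on a dim probe, ILMN_2367818, which was at 5.26, 4.09 and 5.78 under siMLL/AF4 and at -0.30, 2.18 and 5.78 under siCtrl. The other CD40 probe, ILMN_1779257, was at 5.76, 4.25 and 0.18 under siMLL/AF4 and at 2.55, 4.82 and 6.09 under siCtrl, with differences of 3.21, -0.57 and -5.91, so the 2 probes disagree and CD40 has no settled direction. Of the MHC class I presentation genes, which display cytosolic peptides and share part of their regulation with class II, 11 of 12 were tested, with 8 lower and 3 higher (median -0.098). HLA-G differed by -0.86, TAP1 of the peptide transporter by 0.39, HLA-E by -0.33 and the immunoproteasome subunit PSMB9 by -0.28, each with 1 sign on all days.

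Against MOCK, both siRNA treatments together, these lists had other medians, again with no gene passing. Over all 10230 genes tested the median was -0.022 and 51.7% were lower. The other class II genes were lower in 3 of 3 (median -0.84, HLA-DRB4 by -1.23) and class I presentation genes in 11 of 12 (median -0.50, PSMB9 by -1.02, HLA-C by -0.92 and PSMB8 by -0.87). Endosomal genes were lower in 8 of 10 (median -0.33, with the protease inhibitor CST3 by -1.05, CTSZ by -1.0 and IFI30 by -0.92) and costimulation genes in 5 of 5 (median -0.47), with CD40 read there from the other probe. In this pooled comparison cell type markers were on the same side. Those of B-cell precursors were lower in 6 of 7 (median -0.49, with PAX5 by -0.91 and CD22 by -0.91). Those of myeloid and dendritic cells were lower in 3 of 4 (median -0.15, CLEC9A by -0.73), and NKG7 was lower by -0.85. Taken apart, the B-cell precursor markers were lower in 4 of 7 for siMLL/AF4 against MOCK (median -0.13, 47.8% of all genes lower). For siCtrl against MOCK they were lower in 5 of 7 (median -0.57, 54.1% of all genes lower). PAX5, a dim probe, differed by -2.2 and 0.37 in that order, and CD22 by -1.26 and -0.57. The part of the cell type markers in the class II values was not tested. The promoter-binding factors had a median of -0.0074, with 4 lower and 3 higher. Among them RFXANK was lower by -0.62, and NFYC and NFYB of the Y-box factor by -0.56 and -0.47, while NFYA was higher by 0.45. The regulators of CIITA had a median of 0.0014, with 6 lower and 6 higher. Among those regulators JAK2, which signals from the interferon gamma receptor, was higher by 1.19 while IRF2 was lower by -1.73.

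**Figure D4:**
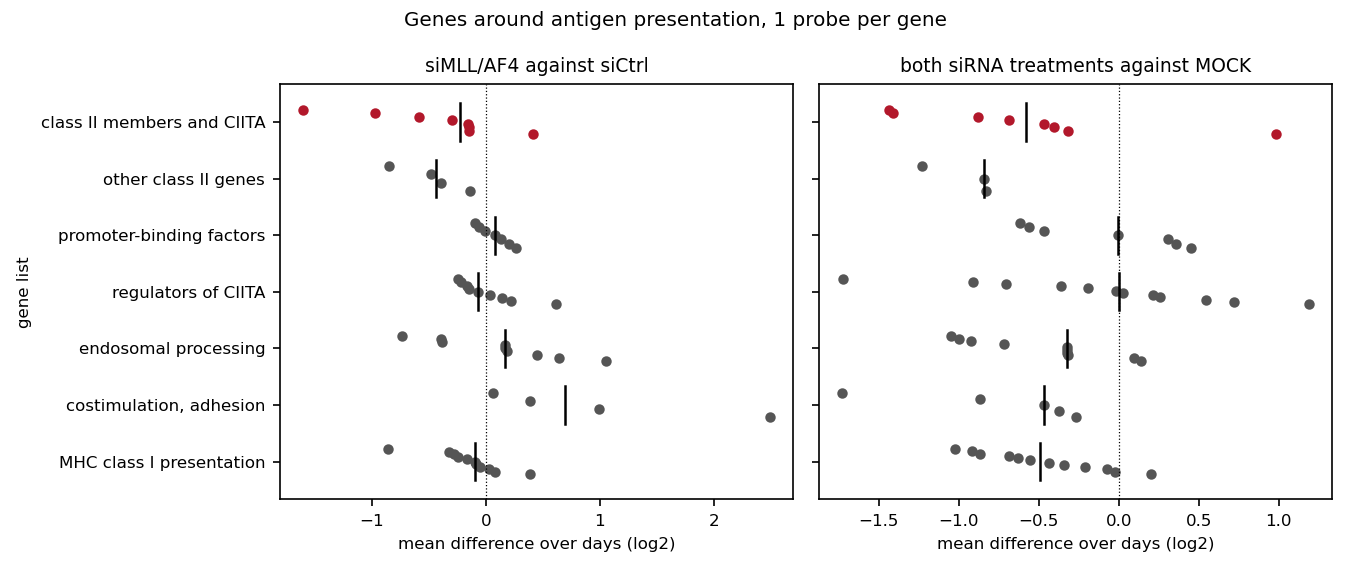
Mean difference over days (log2) of each tested gene, 1 probe per gene, in the class II set (red) and in 6 lists of related genes (grey), for siMLL/AF4 against siCtrl (left) and both siRNA treatments against MOCK (right); vertical bars are medians. Promoter-binding factors lie close to zero on the left (median 0.077), the 4 costimulation genes lie above zero there (the CD40 point, far right, goes against a second CD40 probe), and on the right the medians of the class II and class I lists are below zero.

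Myeloid and dendritic cells also carry class II molecules, so their markers were read beside these results. Of 12 such markers, 4 (CSF1R, LYZ, CD68 and CLEC9A) were above the 25th percentile on all arrays, and ITGAM, FCGR3A, MPO, CD1C, FCER1A, LILRA4 and CLEC4C had no value or a dim one on 4 or more. On days 2 and 4 their summed linear intensity was 873 and 1154 in siMLL/AF4, 805 and 1364 in siCtrl, and 965 and 1584 in MOCK. On the newer arrays of day 6 it was 4369 in siMLL/AF4 and 2894 in siCtrl. For siMLL/AF4 against siCtrl, 5 were tested, with 3 higher (FCGR3A by 1.11, LYZ by 1.07 and CD68 by 0.80) and 2 lower (CSF1R by -0.75 and CLEC9A by -0.37), and none passed. The B-cell precursor markers summed on days 2 and 4 to 8834 and 10757 in siMLL/AF4, 8705 and 8259 in siCtrl, and 12691 and 8305 in MOCK. On day 6 they summed to 10631 in siMLL/AF4 and 9668 in siCtrl. Between siMLL/AF4 and siCtrl 6 of them were tested, with 3 lower and 3 higher (median 0.099), and none passed. The largest differences were 1.16 for IGLL1, 0.74 for CD79A, 0.40 for CD79B and -0.39 for CD22. T and NK cell markers (1 of 9 above the 25th percentile throughout, NKG7) summed on days 2 and 4 to 338 and 675 in siMLL/AF4, 437 and 468 in siCtrl, and 809 and 676 in MOCK, and on day 6 to 1435 in siMLL/AF4 and 1453 in siCtrl. Erythroid markers (0 of 5) summed to 34 and 14 in siMLL/AF4, 37 and 44 in siCtrl, and 51 and 66 in MOCK, and on day 6 to 126 in siMLL/AF4 and 104 in siCtrl. In a bulk sample, fewer cells of a type and less RNA per cell cannot be told apart, and the part of these markers in the class II values was not tested.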

How the data were processed

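Biotin-labelled total RNA from the 8 SEM samples was hybridised to Illumina arrays, per the labels, and processed in GenomeStudio, as the submitters' processing notes say. How background was corrected and arrays normalized is not given in the sources used here. Values deposited in log form, made by the authors with no unit stated, were read as natural logs: the highest then corresponds to a linear intensity of 38664, and to 1512 if read as base 2. They were divided by 0.693 to give log2 values, and Null was treated as missing. All columns mapped to a sample (0 unmapped). The platform annotation gave 27210 of 39421 probes 1 symbol (27177 matched to a current symbol by Entrez identifier), and 12203 are unnamed.

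Each comparison was fitted with limma 3.58.1 in R 4.3.3 (lmFit, eBayes, two-sided), on probes with 1 symbol, no Null in the fitted arrays and a mean not below the median of all probe means in either array version. For that median Null was counted at the lowest value, -3.21, so the cut-off is low: 2.17 (older) and 3.51 (newer) for the siRNA arrays and 2.02 for the 6 older arrays. P-values had Benjamini-Hochberg adjustment over all probes. Each fit had day (or treatment) as a block and 2 residual degrees of freedom, or 1 for the change with day. The time point number of the labels marks a shared day, so it pairs the samples. Deviations of same-day siMLL/AF4 and siCtrl arrays correlated at 0.458, 0.279 and 0.615. Same-day arrays also share the array version, newer for day 6, which these correlations do not separate from pairing. Each fit except that of both siRNA treatments against MOCK was run on simulated data, to check that the code recovers the size of planted differences. The simulated data held no day or array version effect, and spreads were shuffled over probes. They therefore do not bear on how many real probes pass.

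All probes of the 9 genes are named, as are up to 4 genes per list by size of the mean difference and the 5 most similar profiles. Genes and lists were chosen with earlier results of these data known. Alternatives covered normalization, centring, filters, offsets, missing entries, probe choice, variance, log base, block, arrays and left-out days. Figures used matplotlib 3.10.9.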

Additional observations from a re-analysis of the deposited data

How the results depend on the processing

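There is 1 array per treatment and day, and their number limits the precision. The dim probes of HLA-DPB1 and HLA-DQB1 had the largest spread between days of the siMLL/AF4 minus siCtrl difference. In the analysis as reported 0 probes passed in each comparison, and how many passed depended on the setting. Leaving out probes under the 70th percentile gave 16 for siMLL/AF4 against siCtrl, 214 for siMLL/AF4 against MOCK, 523 for siCtrl against MOCK and 418 for the change with day. An offset of 64 on the linear scale gave 46, 797, 1125 and 325 in that order and 118 for day 4 against day 2. A trended robust variance gave 42, 589, 940, 433 and 26, and an offset of 16 gave 4 for siMLL/AF4 against siCtrl, 3 for siMLL/AF4 against MOCK and 26 for the change with day. For both siRNA treatments against MOCK, added after seeing the data, the counts were 959 with the stricter filter, 1716 with the offset of 64 and 1464 with the trended variance. The cause was not tested. With no replicate block 0 probes passed, as in the paired fit, so no call differed. The p-values did: for siMLL/AF4 against siCtrl the smallest limma adjusted p was 0.347 with the block and 0.99997 without it. Leaving out the block there also puts the array version into the spread. The fits without 1 day against MOCK leave 0 residual degrees of freedom and were not run.

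Of the class II genes, those that passed in any of these settings were lower: HLA-DPA1 against siCtrl, HLA-DPA1, CD74, HLA-DOA and HLA-DMA for siMLL/AF4 against MOCK, HLA-DMA and CD74 for siCtrl against MOCK, and HLA-DPA1, HLA-DMA and CD74 for both siRNA treatments against MOCK. Such calls are not particular to class II. With the offset of 64, siMLL/AF4 against siCtrl called 46 of 11789 probes (30 higher, 16 lower). Against MOCK, of 13581 probes, siMLL/AF4 called 797 (361 higher, 436 lower) and siCtrl 1125 (772 higher, 353 lower). Both siRNA treatments together called 1716 (947 higher, 769 lower). The median difference of -0.44 over the 12 probes stayed between -0.27 and -0.73 under the alternatives run. This median does not use the fit. Leaving out the filter or the block, a trended variance or MOCK arrays in the fit therefore could not move it. Reading the logs as base 2 multiplies every value by the same factor, so it could change no call. The sign turned for some small differences. For siMLL/AF4 against siCtrl these were HLA-DQB1 with an offset of 16 (-0.072) and CIITA with siCtrl and MOCK averaged as the control (0.34). With 1 day left out, HLA-DQB1 ran between -0.61 and 1.75, CIITA between -0.64 and 0.38, and HLA-DMA between -0.27 and 0.0069. For day 4 against day 2, HLA-DPB1 was at -0.015 with an offset of 64, and CIITA at 0.0068 and CD74 (ILMN_2379644) at -0.073 on the siRNA arrays alone.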
